A study of Mus musculus with 2 samples.

Results

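The genes described here encode the Sonic hedgehog ligand, its receptors and surface regulators, and the Gli transcription factors, 9 genes of the 18193 that the array's annotation names through at least 1 probe set. They are Shh, Ptch1, Smo, Boc, Cdon, Hhip, Gli1, Gli2 and Gli3. Each was represented by every probe set that the annotation assigns to that gene and to no other, which gave 23 probe sets. The rule itself uses no measured value, though the genes were chosen with earlier results of these data known. The samples were whole lungs taken before birth, at E15.5 (days of embryonic development), from TAZ-deficient mice and from their wild type littermates. TAZ is a transcriptional coactivator of the Hippo pathway, encoded by Wwtr1. For each genotype 4 total RNA samples were mixed and the pool was hybridised to 1 Affymetrix Mouse Genome 430 2.0 array, so the data comprised 1 TAZ-deficient and 1 wild type array. The sources used here give no strain, no description of the disrupted allele and no sex of the embryos.

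Hedgehog signalling in the developing lung runs from the epithelium to the mesenchyme. The epithelium secretes Sonic hedgehog, which binds Patched 1 on mesenchymal cells and so relieves the inhibition of Smoothened, a membrane protein that acts at the primary cilium. Smoothened activity keeps Gli2 and Gli3 from being processed into repressors, and the active Gli proteins switch on Gli1, Ptch1 and Hhip, whose transcripts are therefore used as readouts of the pathway. Ptch1 and Hhip both act as brakes, since each binds the ligand. The pathway is known in the lung for its part in branching, mesenchymal growth and airway smooth muscle formation.

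With 1 array per genotype there was no replicate, and no difference below carries a test or a replicate error. How precise a value can be is limited by the number of arrays. A signal is the linear intensity of a probe set, deposited by the authors after a single scaling factor per array. Signals below a floor of 15.2 units, the median of all non-control signals, were raised to the floor before log2 ratios, TAZ-deficient over wild type, were computed, and a probe set or gene counted as measured when it was above the floor on either array. A difference of 1.5-fold was the size counted as a difference. The only error the 2 arrays offer is the disagreement between probe sets of a gene, which corresponded to an SD of 0.19 on the log2 scale for the ratio of 1 probe set over 5201 genes. That SD was 0.13 for 2418 genes with both probe sets above the 75th percentile of signal, 106.3 units, and 0.23 for the remaining 2783, and it holds no variation between embryos, pools or arrays. In whole lung RNA, fewer cells of a type and less RNA per cell cannot be told apart. Wwtr1 read 11.3 units in the TAZ-deficient pool and 791.2 units in the wild type pool at its brightest probe set, and its other probe sets also lay below the floor in the TAZ-deficient pool.

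All 9 genes were measured, through 19 of their 23 probe sets. The other 4 probe sets, 1 each of Ptch1, Smo, Boc and Cdon, read between 0.3 and 9.8 units and were not above the floor on either array. Gli1 and Hhip, both pathway readouts, were lower in TAZ-deficient lung at all of their probe sets, whereas Ptch1 differed by less than 1.03-fold at both of its measured probe sets. Gli2, Gli3 and Smo were slightly higher at every measured probe set, and the ligand Shh differed by 1.02-fold at its bright probe set. By its brightest probe set, 1 of 9 genes was at least 1.5-fold lower, set against 1.47% of all 12032 measured genes, and 0 of 9 were at least 1.5-fold higher, set against 1.28%. Among the 19 measured probe sets, 2 were at least 1.5-fold lower, set against 1.81% of 21294 measured probe sets, and 0 were at least 1.5-fold higher, set against 1.62%. In sign the 19 were split, 9 below and 10 above 0, where 52.5% of all measured probe sets were below 0. The median log2 ratio of the 9 genes was 0.04, and that of all measured genes was -0.01.

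**Figure D1:**
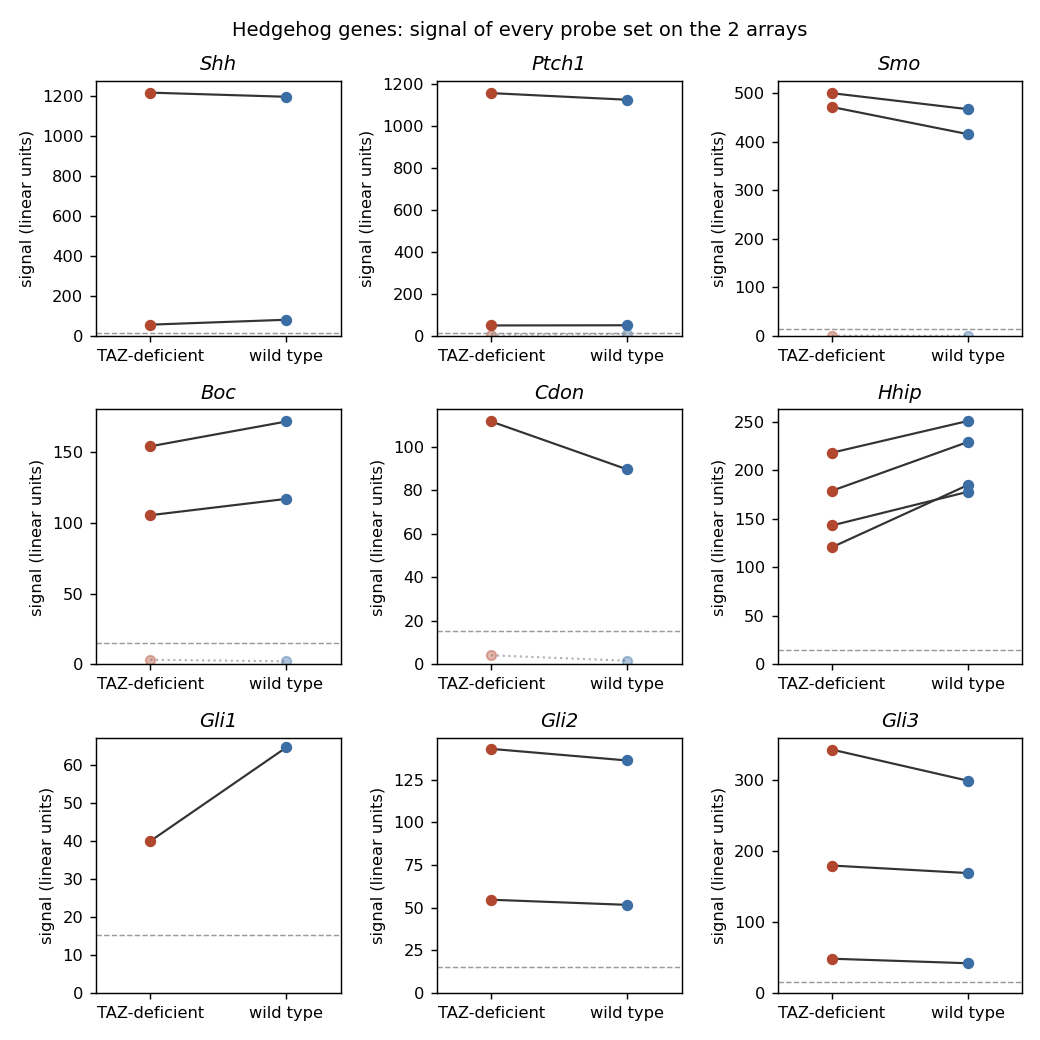
Signal in linear units (y axis, each panel with its own scale from 0) of every probe set of the 9 hedgehog genes on the TAZ-deficient array (left, red) and the wild type array (right, blue). Each line joins 1 probe set, pale dotted lines are probe sets not above the floor, and the dashed line is the floor of 15.2 units. All 4 Hhip lines and the Gli1 line end higher on the wild type side, while the bright lines of Shh and Ptch1 are nearly level.

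The ligand was represented by 2 probe sets that differed from each other. The brighter Shh probe set (1436869_at) read 1217.9 units in TAZ-deficient lung and 1197.2 units in wild type lung, a log2 ratio of 0.02. The dimmer one (1427571_at) read 56.7 units in TAZ-deficient lung and 81.2 units in wild type lung, 1.43-fold lower, with a log2 ratio of -0.52. So the gene's direction depended on the probe set, and the bright probe set gave a ratio close to 0. The ratio of the gene was also below 0 under quantile normalization and loess.

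Ptch1, the receptor that also restrains the pathway, showed almost the same signal on both arrays. Its bright probe set (1428853_at) read 1156.0 units in TAZ-deficient lung and 1124.4 units in wild type lung, a log2 ratio of 0.04. The second (1450824_at) read 50.1 units in TAZ-deficient lung and 51.0 units in wild type lung, a log2 ratio of -0.03. Smo, which carries the signal across the membrane, was slightly higher. It read 499.9 units in TAZ-deficient lung and 466.9 units in wild type lung at a probe set whose ID marks it as shared by several transcripts (1427049_s_at), a log2 ratio of 0.10. At the other measured probe set (1427048_at) it read 471.4 units in TAZ-deficient lung and 415.5 units in wild type lung, a log2 ratio of 0.18, 1.13-fold higher.

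The co-receptors Boc and Cdon, related surface proteins that bind the ligand and present it to Ptch1, had ratios of opposite sign. Boc was lower at both measured probe sets, with nearly equal ratios. It read 153.9 units in TAZ-deficient lung and 171.4 units in wild type lung at 1427516_a_at, a log2 ratio of -0.16, and 105.3 units in TAZ-deficient lung and 116.8 units in wild type lung at 1426869_at, a log2 ratio of -0.15. Cdon had 1 measured probe set (1434957_at), which read 111.5 units in TAZ-deficient lung and 89.5 units in wild type lung, 1.25-fold higher. Its log2 ratio of 0.32 was the highest of the 9 genes, and 5.88% of measured genes had a ratio as high or higher. With the floor raised to 106.3 units the Cdon ratio was 0.07, because the wild type signal then lay under the floor.

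Hhip, a membrane-anchored and secreted protein that binds hedgehog ligands and keeps them from Ptch1, was lower at 4 of 4 probe sets. The probe set 1455277_at read 218.0 units in TAZ-deficient lung and 250.7 units in wild type lung, 1.15-fold lower. The probe set 1438083_at read 178.8 units in TAZ-deficient lung and 229.1 units in wild type lung, 1.28-fold lower. The probe set 1421426_at read 143.1 units in TAZ-deficient lung and 177.8 units in wild type lung, 1.24-fold lower. The size of the difference thus varied among probe sets while the sign did not. The probe set 1437933_at read 120.7 units in TAZ-deficient lung and 184.8 units in wild type lung, 1.53-fold lower. The log2 ratios ran from -0.61 to -0.20, with a median of -0.34 and a mean of -0.37 ± 0.17 (SD over 4 probe sets of the same 2 arrays, which are not replicates). Of the 876 genes that had 4 or more measured probe sets, 79 (9.02%) were lower at all of them. The median over probe sets was as low as that of Hhip or lower for 10 of the 876 genes (1.14%), Hhip included.

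Gli1, the Gli factor that acts only as an activator and is itself induced by the pathway, had the lowest ratio of the 9 genes. Its only probe set (1449058_at) read 40.0 units in TAZ-deficient lung and 64.7 units in wild type lung, 1.62-fold lower, with a log2 ratio of -0.69. Among the 12032 measured genes, 87 (0.723%) had a ratio as low or lower, Gli1 included. The signal was dim, and among the 4947 measured genes whose brighter signal was no more than 106.3 units, 3.09% were at least 1.5-fold lower, against 0.339% of the 7085 brighter genes. No second probe set was there to set beside it. The call ended under 2 alternatives. With a pseudocount of 16 in place of the floor the log2 ratio was -0.53 (1.44-fold lower), and with the floor at 106.3 units Gli1 was not measured.

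**Figure D2:**
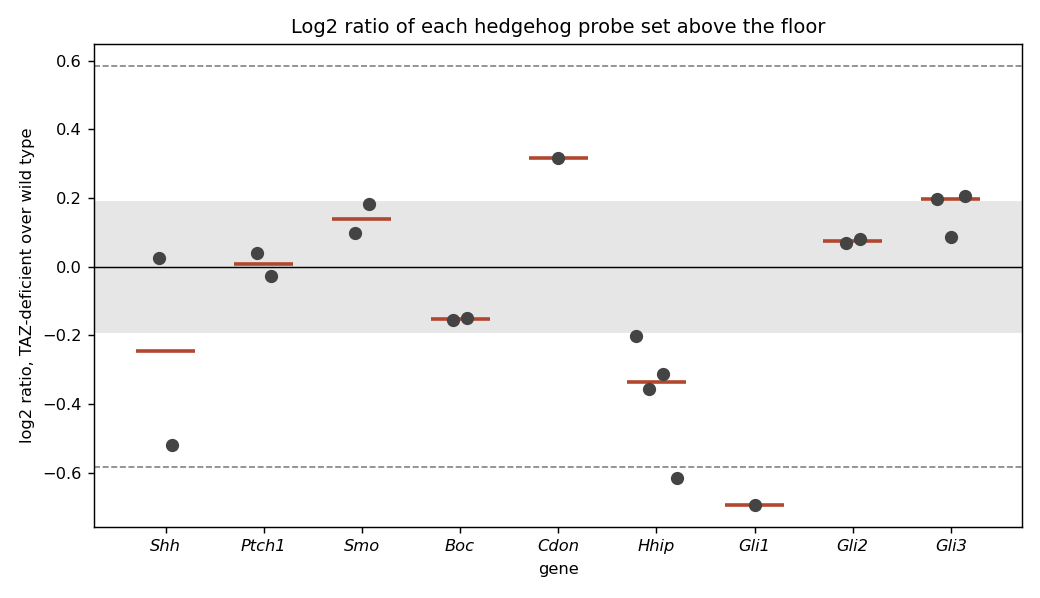
Log2 ratio, TAZ-deficient against wild type, (y axis) for each of the 19 measured probe sets (points) of the 9 genes (x axis), with the median over a gene's probe sets as a red bar. The grey band is ±0.19, the SD of the ratio of 1 probe set, and dashed lines mark 1.5-fold. The Gli1 point and 1 of the 4 Hhip points lie below the lower dashed line, and the Gli2 points and Ptch1 points lie inside the band.

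Gli2 and Gli3, the factors that respond directly to Smoothened and of which Gli3 is mainly a repressor in the absence of ligand, were above wild type at all 5 of their probe sets, by small amounts. Gli2 read 143.0 units in TAZ-deficient lung and 136.2 units in wild type lung at 1459211_at, and 54.6 units in TAZ-deficient lung and 51.6 units in wild type lung at 1446086_s_at, with log2 ratios of 0.07 and 0.08. The annotation ties both Gli2 probe sets to the same source sequence, so they do not stand for separate parts of the transcript with certainty. Gli3 read 342.9 units in TAZ-deficient lung and 299.0 units in wild type lung at 1456067_at, 1.15-fold higher. It read 179.5 units in TAZ-deficient lung and 168.9 units in wild type lung at 1455154_at, 1.06-fold higher, and 48.2 units in TAZ-deficient lung and 41.8 units in wild type lung at 1450525_at, 1.15-fold higher. The Gli1 ratio, from a single dim probe set, lay 0.77 below the Gli2 median and 0.89 below the Gli3 median on the log2 scale. Whether the 3 Gli transcripts differed between the pools by a common factor was not tested. For the other readouts, the Gli1 ratio lay 0.73 below that of Ptch1 and the Hhip median 0.38 below it. None of these differences has a replicate check.

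**Figure D3:**
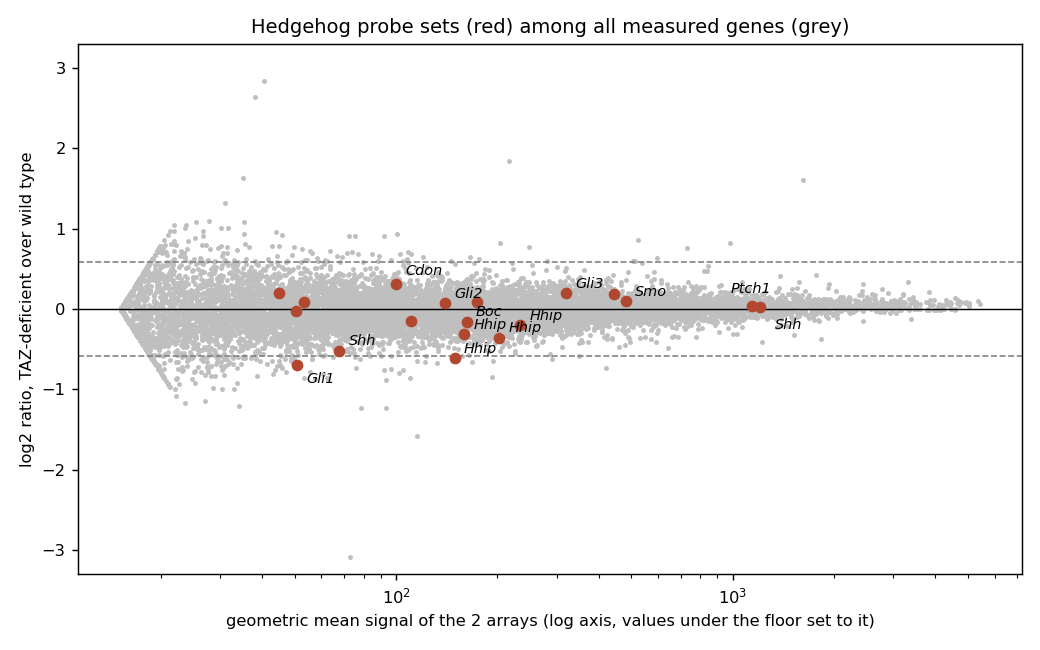
Log2 ratio, TAZ-deficient against wild type, (y axis) against the geometric mean signal of the 2 arrays (log x axis, linear units) for all measured genes except Wwtr1 (grey, brightest probe set) and for the 19 measured hedgehog probe sets (red; the brightest probe set of each gene and all those of Hhip and Shh are named). Dashed lines mark 1.5-fold. Gli1 lies below the lower dashed line in the dim range, where the grey cloud is wide, and the bright Shh and Ptch1 probe sets lie near 0.

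Since Hhip and Ptch1 are both pathway-induced inhibitors and their ratios parted, a promoter window of each is shown. Each window runs from 250 bases before to 50 bases after a transcription start, from RefSeq on build GRCm38.p6, and was matched by gene symbol. Capitals mark the GC box GGGCGG on either strand, a motif bound by Sp1-type factors. The Hhip window is chr8:80057959-80058258 on the minus strand, and the Ptch1 window is chr13:63565686-63565985 on the minus strand. The Ptch1 window lies inside the annotated gene (chr13:63508328-63573460), and a start at the gene's outer end was not searched.
Hhip: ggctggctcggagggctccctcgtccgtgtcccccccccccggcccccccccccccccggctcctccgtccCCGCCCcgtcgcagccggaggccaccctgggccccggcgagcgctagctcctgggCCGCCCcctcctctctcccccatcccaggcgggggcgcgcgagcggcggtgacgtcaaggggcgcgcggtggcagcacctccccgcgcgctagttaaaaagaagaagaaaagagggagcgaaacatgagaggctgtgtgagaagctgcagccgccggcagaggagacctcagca
Ptch1: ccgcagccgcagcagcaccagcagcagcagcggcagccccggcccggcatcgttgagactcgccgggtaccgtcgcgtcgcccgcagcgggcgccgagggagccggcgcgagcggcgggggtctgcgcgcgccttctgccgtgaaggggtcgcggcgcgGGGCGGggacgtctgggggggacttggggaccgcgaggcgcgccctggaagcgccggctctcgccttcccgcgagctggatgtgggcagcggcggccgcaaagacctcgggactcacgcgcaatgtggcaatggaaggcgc

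Both windows were rich in G and C, at 73.7% for Hhip and 76.3% for Ptch1. The Hhip window held 2 GC boxes and the Ptch1 window held 1, and 35.7% of the 32851 windows in the table held at least 1. The Gli binding sequence GACCACCCA, searched on both strands, was in neither window and in 0.253% of all windows. Its shorter core CCACCCA, which lies inside it, was also in neither and was in 9.3% of all windows. The TEAD binding sequence GGAATG, the motif through which TAZ reaches DNA with its TEAD partners, was in neither of these windows on either strand and in 14.7% of all windows. Windows were matched for 6 of the 9 genes (Gli2, Smo, Hhip, Cdon, Gli3 and Ptch1). None of the 6 held GACCACCCA or CCACCCA, and 1, that of Smo, held GGAATG. A match is a description of letters, and its absence says only that these letters are not in these windows.

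The rest of the pathway was examined through lists written from textbook knowledge with earlier results of these data known. Of the other ligands, ligand release factors and receptors, 10 of 11 genes matched a probe set and 7 were measured. At least 1.5-fold higher were 0 of 7, set against 1.28% of all measured genes, and at least 1.5-fold lower 0, set against 1.47%. The median log2 ratio was -0.01, that of all measured genes being -0.01. Disp1, which releases lipid-modified ligand from the producing cell, came nearest at 54.3 units in TAZ-deficient lung and 36.3 units in wild type lung, just under 1.5-fold higher (log2 ratio 0.58). It passed 1.5-fold under 3 of 8 alternatives (quantile normalization, median centring and loess). With a pseudocount of 16 it was 1.34-fold higher, and with the floor at 106.3 units it was not measured. The other Disp1 probe set was not above the floor on either array. Hhat, the acyltransferase that attaches palmitate to the ligand, read 64.2 units in TAZ-deficient lung and 53.9 units in wild type lung, and its second probe set read 38.7 units in TAZ-deficient lung and 33.5 units in wild type lung. Gas1, a co-receptor that acts beside Boc and Cdon, read 423.2 units in TAZ-deficient lung and 426.9 units in wild type lung, a log2 ratio of -0.01 at this and at its second probe set. The glypican Gpc3, a surface proteoglycan that binds hedgehog ligands, read 1011.1 units in TAZ-deficient lung and 889.4 units in wild type lung. The related ligand Dhh read 14.5 units in TAZ-deficient lung and 20.0 units in wild type lung, at least 1.32-fold lower, and Ihh was below the floor on both arrays. Scube2 and Scube3, secreted proteins that help to free the ligand, had log2 ratios of -0.29 and -0.27, the wild type signal of Scube3 being 18.3 units and its TAZ-deficient signal under the floor.

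Genes of cytoplasmic and ciliary transduction had nearly the same signals in both pools at their brightest probe sets. Of 17 measured members 0 were at least 1.5-fold higher or lower, where 1.28% of all measured genes were higher and 1.47% lower. Within 1.2-fold were 16 of the 17, where 81.4% of all measured genes were, and the median log2 ratio was 0.01. Sufu, the main cytoplasmic inhibitor of Gli proteins, read 169.1 units in TAZ-deficient lung and 169.1 units in wild type lung at its brightest probe set. Its dimmer probe sets had log2 ratios of -0.22 and at least 0.34. The ciliary kinesin Kif7 read 71.4 units in TAZ-deficient lung and 73.4 units in wild type lung. Gpr161, a ciliary receptor that favours repressor formation, read 87.4 units in TAZ-deficient lung and 88.3 units in wild type lung. Sufu, Kif7 and Gpr161 thus lay within 1.03-fold of wild type at their brightest probe sets. The exception to the 1.2-fold range was the kinase Gsk3a, which read 339.3 units in TAZ-deficient lung and 279.7 units in wild type lung, 1.21-fold higher. Evc, a ciliary partner of Smoothened, read 77.7 units in TAZ-deficient lung and 65.9 units in wild type lung, and its partner Evc2 read 65.3 units in TAZ-deficient lung and 67.5 units in wild type lung.

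Other genes known as hedgehog targets in various tissues gave no common shift. Of 19 genes 18 matched a probe set and 14 were measured, with 6 ratios above and 8 below 0 and a median log2 ratio of -0.02. At least 1.5-fold higher or lower were 0 of 14, where 1.28% of all measured genes were higher and 1.47% lower. Foxf1, a forkhead factor of lung mesenchyme that responds to Sonic hedgehog, read 948.3 units in TAZ-deficient lung and 1003.6 units in wild type lung, and at its second probe set 203.7 units in TAZ-deficient lung and 248.7 units in wild type lung, 1.22-fold lower. Its relative Foxf2 read 211.8 units in TAZ-deficient lung and 183.6 units in wild type lung. The growth factor Bmp4 read 527.5 units in TAZ-deficient lung and 526.9 units in wild type lung. The forkhead targets therefore had ratios of opposite sign. Mycn, a proliferation factor, read 426.9 units in TAZ-deficient lung and 362.7 units in wild type lung, and Ccne1, a cell cycle cyclin, was the lowest of the list at 237.5 units in TAZ-deficient lung and 313.6 units in wild type lung, while its second probe set read 127.7 units in TAZ-deficient lung and 129.7 units in wild type lung. Sfrp1, a secreted Wnt inhibitor, read 62.5 units in TAZ-deficient lung and 75.2 units in wild type lung at its brightest probe set, with log2 ratios from -0.69 to 0.18 over 5 probe sets.

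**Figure D4:**
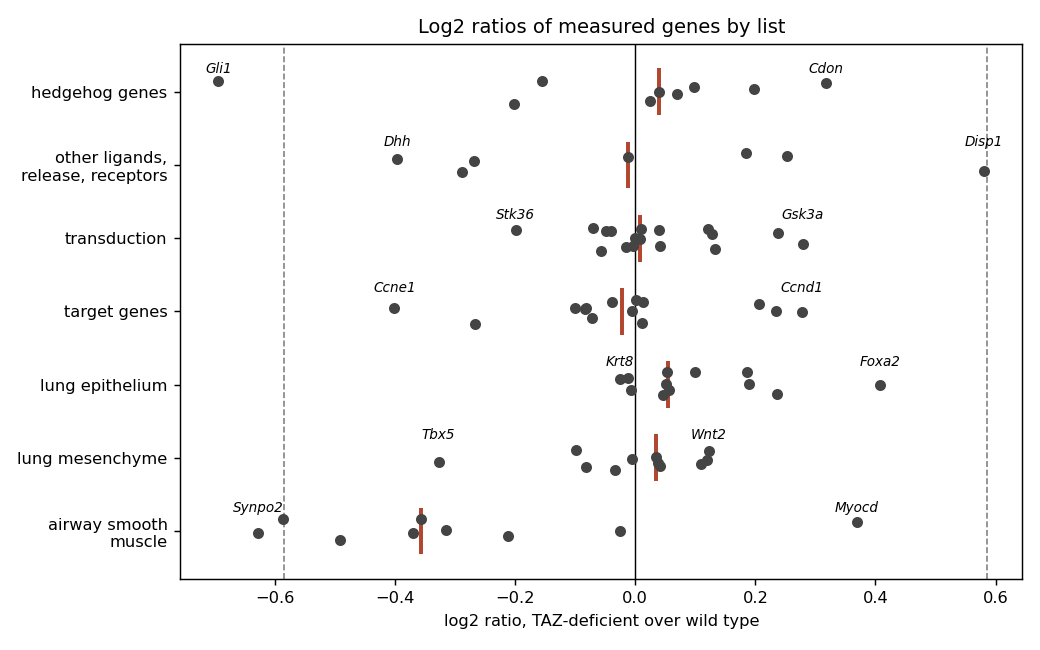
Log2 ratio, TAZ-deficient against wild type, (x axis) of each measured gene (points, spread vertically for sight only) in the hedgehog gene set, 3 further pathway lists and 3 cell type lists (rows), with the list median as a red bar, dashed lines at 1.5-fold and the lowest and highest gene of each row named. The median of the row labelled airway smooth muscle, a list of smooth muscle genes, is at -0.36, and the other medians lie between -0.02 and 0.05.

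Markers of the cells that send and receive the signal were compared in the same way. By their brightest probe sets, 1.28% of all measured genes were at least 1.5-fold higher and 1.47% at least 1.5-fold lower. Of the lung epithelium list, the source of the ligand, 12 of 12 genes were measured, 0 were 1.5-fold different and the median log2 ratio was 0.05. Their summed signal was 13961 units in TAZ-deficient lung and 13226 units in wild type lung. Foxa2, a forkhead factor of lung epithelium, was the highest at 641.0 units in TAZ-deficient lung and 483.0 units in wild type lung, 1.33-fold higher. Nkx2-1, the defining transcription factor of lung epithelium, read 60.6 units in TAZ-deficient lung and 61.1 units in wild type lung. Of the lung mesenchyme list 11 of 11 were measured, 0 were 1.5-fold different and the median was 0.03, with a summed signal of 13701 units in TAZ-deficient lung and 13309 units in wild type lung. The mesenchyme median lay below 0 under quantile normalization, loess and the median over probe sets, at -0.01 at the lowest. Fgf10, the mesenchymal growth factor that Sonic hedgehog is known to repress, read 34.6 units in TAZ-deficient lung and 35.4 units in wild type lung.

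Airway smooth muscle, whose formation is known to depend on hedgehog signalling, was compared through a list of 10 smooth muscle genes, of which 9 were measured. In whole lung RNA their signals cannot be assigned to the airway rather than to other smooth muscle. Of these, 8 had ratios below 0, where 52.9% of all measured genes did, and 1 had a ratio above 0. At least 1.5-fold lower were 2 of 9, set against 1.47% of all measured genes. At least 1.5-fold higher were 0, set against 1.28%. The median log2 ratio was -0.36, set against -0.01 for all measured genes. The summed signal was 3924.3 units in TAZ-deficient lung and 4281.3 units in wild type lung. The 2 past 1.5-fold were the actin-associated protein Synpo2 (62.9 units in TAZ-deficient lung and 97.2 units in wild type lung) and calponin, Cnn1 (79.0 units in TAZ-deficient lung and 118.6 units in wild type lung). Synpo2 lay in the range up to 106.3 units, where 3.09% of measured genes were at least 1.5-fold lower. The brighter signal of Cnn1 lay above that range, where 0.339% were. Smooth muscle actin, Acta2, read 2701.5 units in TAZ-deficient lung and 2749.2 units in wild type lung. Myocd, the coactivator that drives smooth muscle genes, read 59.0 units in TAZ-deficient lung and 45.7 units in wild type lung, with the opposite sign at its second measured probe set (12.2 units in TAZ-deficient lung and 19.3 units in wild type lung). Of the heart muscle markers 4 of 7 were measured and 4 of these had ratios below 0. At least 1.5-fold lower were 3 of them (Myl7, Myh7 and Tnnt2), all with signals no brighter than 106.3 units, a range in which 3.09% of measured genes were that much lower. The list had a summed signal of 516.8 units in TAZ-deficient lung and 691.0 units in wild type lung, while Nkx2-5, Nppa and Myh6 were not above the floor on either array. The part of smooth muscle or heart muscle content in the lower Gli1 and Hhip signals was not tested.

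Markers of liver and of squamous epithelium, which a dissection could include, were mostly under the floor. Of the liver list 1 gene was measured (Alb, 10.7 units in TAZ-deficient lung and 15.3 units in wild type lung), and of the oesophagus and squamous epithelium list 1 (Krt6a, 7.2 units in TAZ-deficient lung and 17.2 units in wild type lung). Cartilage genes, which can also respond to hedgehog ligands, were measured for 5 of 7, with a median log2 ratio of 0.30. Only Matn3 passed 1.5-fold, at 1.83-fold lower (18.3 units in TAZ-deficient lung and 33.5 units in wild type lung). Its second probe set was lower by at least 1.05-fold (12 units in TAZ-deficient lung and 16 units in wild type lung). In the dim range, up to 106.3 units, 3.09% of measured genes passed 1.5-fold in that direction. Summed cartilage signal was 394.4 units in TAZ-deficient lung and 360.6 units in wild type lung. Endothelial (6 of 6 measured) and mesothelial (4 of 5 measured) lists held 0 genes past 1.5-fold. For these lists and those below, 1.28% of all measured genes were at least 1.5-fold higher and 1.47% at least 1.5-fold lower. Of the skeletal muscle list 3 genes were measured, Ckm being lower by at least 1.53-fold at its brightest probe set (10.6 units in TAZ-deficient lung and 23.3 units in wild type lung) and at least 1.29-fold higher at its second (19.6 units in TAZ-deficient lung and 10.1 units in wild type lung), and of 2 measured neural genes 0 were past 1.5-fold. Within the erythroid list, 5 genes were measured. The 3 embryonic globins were more than 3-fold higher at their brightest probe sets. At its other probe sets Hbb-bh1 was 2.91-fold and at least 2.86-fold higher. Slc4a1, the red cell anion exchanger, read 148.2 units in TAZ-deficient lung and 195.2 units in wild type lung. Alas2, the first enzyme of erythroid haem synthesis, read 609.2 units in TAZ-deficient lung and 662.4 units in wild type lung. The summed erythroid signal was 4054.1 units in TAZ-deficient lung and 1917.3 units in wild type lung, with Hbb-y the brightest member (2825.8 units in TAZ-deficient lung and 926.0 units in wild type lung). The part of blood content in the hedgehog ratios was not tested.

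**Figure D5:**
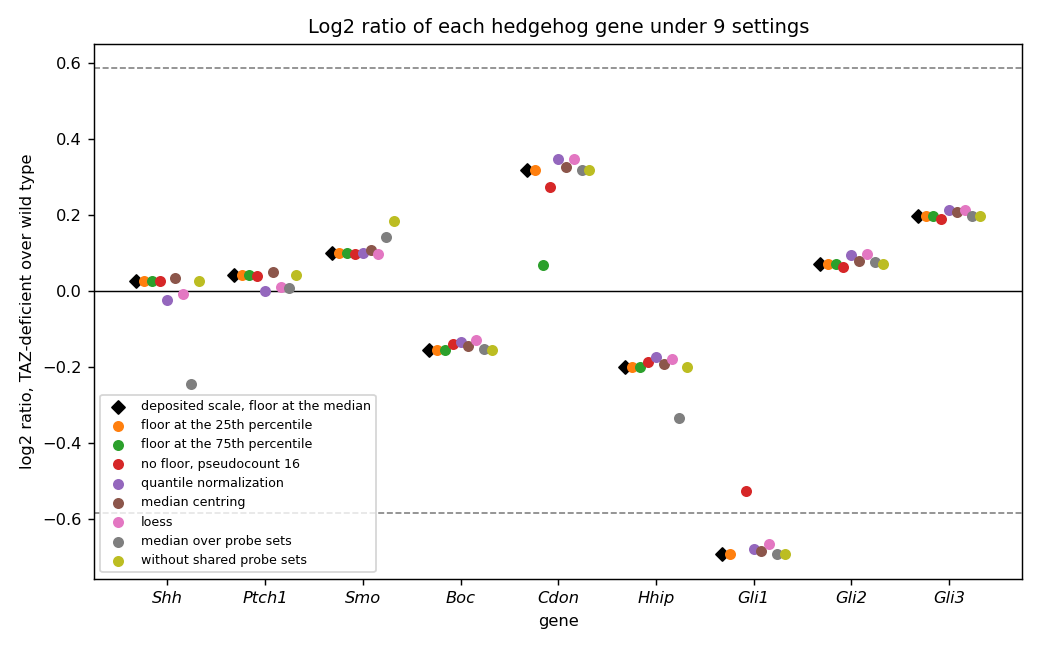
Log2 ratio, TAZ-deficient against wild type, (y axis) of each of the 9 genes (x axis) on the deposited scale with the floor at the median (black diamonds) and under 8 alternatives (coloured points), with dashed lines at 1.5-fold. Gli1, Hhip and Boc are below 0 and Gli2, Gli3, Smo and Cdon above 0 under each setting that measured them, and Shh and Ptch1 cross 0.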

How the data were processed

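One-colour Affymetrix arrays of 2 RNA pools were analysed, 1 TAZ-deficient and 1 wild type, grouped by their source names. The deposited values are linear intensity values per probe set, made with GCOS and MAS5 (versions unstated) per the submitters' processing notes. Their mean, trimmed by 2% at each end, was the same on both arrays, so a common scaling had been applied. No source used here gives the genome build of the probes.

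There were 45101 probe sets, 64 of them controls, and the platform annotation named 1 gene for 34945. Symbols were updated through Entrez identifiers where RefSeq (GRCm38.p6) held them. A gene was represented by its brightest probe set, and every probe set of the 9 hedgehog genes was also read. Ratios were computed in Python 3.11.15 with numpy 2.4.6 and pandas 2.3.3, and the loess alternative with statsmodels 0.14.6. The counting rule was tested on simulated data, with differences larger than that of Gli1 placed in brighter genes. That test therefore says nothing of a difference like that of Gli1. With 1 array per group no test was possible.

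The members and lists were chosen with earlier results of these data known. The naming rule covered the 9 hedgehog genes, any measured gene of the 3 further pathway lists, and, of each other list, genes past 1.5-fold and the brightest. Not every gene that the rule covered is named. Other named genes (Foxa2, Nkx2-1, Fgf10, Myocd, Nkx2-5, Nppa and Myh6 among them) are defining markers or were chosen after their values were seen. Alternatives were another floor, a pseudocount, other scalings, the median over probe sets and the removal of shared probe sets.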

Additional observations from a re-analysis of the deposited data

How the results depend on the processing

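Of the 9 hedgehog genes, 1 was at least 1.5-fold lower on the deposited scale and under 6 of 8 alternatives, and 0 with a pseudocount of 16 or a floor at the 75th percentile; at that floor Gli1 was not measured, and with the pseudocount its log2 ratio was -0.53. No gene among the 9 was at least 1.5-fold higher under any of the 8. Gli1 ran from -0.69 to -0.53 under the 7 that measured it, and Hhip from -0.34 (median over probe sets) to -0.17 (quantile normalization), with 4 of 4 probe sets lower under all 8. Shh was below 0 under quantile normalization, loess and the median over probe sets (-0.25), and Ptch1 under quantile normalization (-0.0020); the other 7 genes kept their sign. The background depended on the floor, 1150 genes being at least 1.5-fold lower when it was at the 25th percentile, 12 at the 75th and 74 with the pseudocount, against 177, and 844, 14 and 58 at least 1.5-fold higher, against 154. Ratios varied more between probe sets of genes without both above the 75th percentile of signal (SD 0.23) than of genes with both above it (0.13). Gli1, whose only probe set was dim, could not enter that comparison. No paired analysis was possible because each group had 1 array, and leaving out a replicate was not possible.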

Other observations

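Among the 876 genes that had 4 or more measured probe sets, 6 (0.685%) had every probe set at or below the highest Hhip log2 ratio of -0.20, in TAZ-deficient relative to wild type lung. They were Igf1, a growth factor of mesenchymal cells, with a median log2 ratio of -0.38, Entr1 (-0.35), Ublcp1 (-0.34), Hhip itself (-0.34), Rgmb, a BMP co-receptor (-0.33), and Mxd4, a repressor of the MYC network (-0.32). These genes were chosen after their values were seen, and the upper limit that admits them, set on each gene's highest log2 ratio, is that of Hhip.

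Tbx5, a T-box factor of lung mesenchyme, read 93.1 units in TAZ-deficient lung and 116.8 units in wild type lung at its brightest probe set and 58.0 units in TAZ-deficient lung and 97.0 units in wild type lung at its second, 1.25-fold and 1.67-fold lower, and the related factor Tbx4 read 993.5 units in TAZ-deficient lung and 970.0 units in wild type lung at its brightest probe set and 357.2 units in TAZ-deficient lung and 420.9 units in wild type lung at its second, 1.18-fold lower.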
